A study of Mus musculus with 4 samples.

Results

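The regions described here were the ATAC-seq peaks at start sites of long noncoding RNAs in mouse bone mesenchymal stem cells (MSCs). A peak was a member when it lay on an autosome, within 1 kb of an annotated start of a lincRNA, antisense or processed_transcript gene in GENCODE M21, and more than 5 kb from every protein-coding start. This rule used positions and no measured value. It gave 2363 members among 128055 peaks, of which 124498 were autosomal. The members belonged to 2093 genes of the 8875 autosomal genes of those types. Of these genes 1840 had 1 member, 253 had 2 or more and 97 members served more than 1 gene, so members are not independent of each other.

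Chromatin was compared in 4 libraries. The 2 hypoxia libraries came from MSCs kept at 2% O2 and the 2 normoxia libraries from MSCs that spent 7 days at 21% O2. All cells came from hind-limb bones of young male C57BL/6N mice aged 3 to 5 months, were first grown at 2% O2 and were sorted as CD45-, Ter-119-, Sca-1+ and CD140a+, so both groups were cultured cells and neither was taken directly from bone. The libraries of a group are described as biologically independent, and nothing in the labels ties a hypoxia library to a normoxia library of the same number. By the paper, sorted cells were divided between both oxygen conditions, so libraries of the same number may share their origin. They were treated as unpaired.

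Long noncoding RNAs are transcripts without a protein product, and many are made in small amounts from promoters that resemble enhancers. Some have known nuclear roles, since Malat1 gathers in nuclear speckles and Neat1 is the scaffold of paraspeckles. Others host small RNAs in their introns or act on the gene next to them, as the imprinted antisense RNAs do. ATAC-seq reports how often the Tn5 transposase enters the DNA of a region, and it says nothing directly about how much RNA is made.

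The starts of 3 members that carry the main results are shown as RefSeq sequence of the genome assembly GRCm38.p6 (mm10 coordinates), from 250 bases before to 50 bases after the annotated start, with each CpG in capitals. Malat1 is among the members of highest total value, Snhg8 has a CpG-rich start, and Gm3830 has a CpG-poor start and the largest fall among the members named by the rule.
Malat1: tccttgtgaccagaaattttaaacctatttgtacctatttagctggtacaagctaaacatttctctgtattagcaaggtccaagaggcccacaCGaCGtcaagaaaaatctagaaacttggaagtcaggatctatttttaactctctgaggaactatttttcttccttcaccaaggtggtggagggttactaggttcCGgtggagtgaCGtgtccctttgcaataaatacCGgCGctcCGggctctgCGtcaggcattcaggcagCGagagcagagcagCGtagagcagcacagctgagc
Snhg8: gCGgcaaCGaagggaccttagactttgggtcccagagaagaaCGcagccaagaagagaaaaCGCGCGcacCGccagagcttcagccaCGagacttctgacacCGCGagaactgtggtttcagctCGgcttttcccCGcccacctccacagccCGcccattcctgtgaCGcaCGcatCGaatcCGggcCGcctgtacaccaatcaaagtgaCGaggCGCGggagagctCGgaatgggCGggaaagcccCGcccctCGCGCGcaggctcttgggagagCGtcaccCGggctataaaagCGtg
Gm3830: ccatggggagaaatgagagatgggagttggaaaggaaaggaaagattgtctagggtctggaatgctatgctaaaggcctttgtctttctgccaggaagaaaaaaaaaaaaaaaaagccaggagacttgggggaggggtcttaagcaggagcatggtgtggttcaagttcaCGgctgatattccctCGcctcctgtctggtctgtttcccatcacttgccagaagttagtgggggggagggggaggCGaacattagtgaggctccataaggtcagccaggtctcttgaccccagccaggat
These windows lie on chr19:5802623-5802922 (Malat1, minus strand), chr3:123508355-123508654 (Snhg8, minus strand) and chr8:105164337-105164636 (Gm3830, plus strand). They hold 10, 30 and 3 CpG sites. The ratio of observed to expected CpG, which is near 1 where CpG sites have not been lost, was 0.604 for Malat1, 1.02 for Snhg8 and 0.169 for Gm3830. The Snhg8 window has 4 matches to the GC box, GGGCGG, on either strand.

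Library totals were recovered from the deposited values, taking a value as reads per 10000000 reads of the library. On that reading the libraries held 26680936 to 29965523 reads, and whether these are single reads or fragments is not known. Reads in peaks then made up 57.0% and 62.3% of the total in hypoxia, and 32.5% and 37.6% in normoxia. A fold change thus depends on how the libraries are brought to a common scale. The deposited value of a peak was thus taken as its number of reads per 10000000 reads of the library, not divided by peak width. The main scaling used relative log expression (RLE) size factors, and calls were made with limma at a Benjamini-Hochberg false discovery rate (FDR) under 0.01 over all peaks. Promoter peaks were found at 6 of 7 stromal marker genes (none at Lepr), with a summed deposited value of 2090 and 2382 in hypoxia against 1260 and 1337 in normoxia. Of 6 blood markers 3 had a promoter peak (summed value 57.3 to 78.2, none at Ptprc) and of 3 endothelial markers only Pecam1 had one (6.75 to 12.3). The part of other cells in the results was not tested, and fewer open cells and less opening per cell cannot be told apart in bulk libraries.

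In the median, members held more reads than peaks as a whole and fewer than coding promoter peaks. The value is not divided by width, so it mixes accessibility with peak width. The median value of members over the 4 libraries was 22.2, against 12.4 for 40330 intergenic peaks and 52.9 for 20230 coding promoter peaks. Over all peaks it was 14.3. Members were 1400 bp wide in the median, against 900 bp for intergenic and 2100 bp for coding promoter peaks. Their median CpG ratio was 0.243, against 0.186 and 0.436. A CpG ratio of at least 0.6 was found in 116 members (4.91%), in 0.826% of intergenic peaks and in 27.5% of coding promoter peaks. By width, CpG content and signal alike the members thus lay between the other classes. The median member held 70 and 79 reads in hypoxia and 47 and 57 reads in normoxia, and 599 members had a mean value under 10.

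Of the 2363 members, 159 were called lower in normoxia (6.73%) and 28 higher (1.18%). Over all peaks the calls were 4.57% lower and 1.77% higher. The peak caller had assigned 15 of the 159 to hypoxia only, and 0 of the 28. That assignment used these libraries, so the direction of these 15 is no result. Such peaks made up 5.67% of members and 6.84% of all peaks. Log2 fold changes are normoxia against hypoxia after RLE scaling, taken on log2(value + 1), and their median was -0.087 for members and -0.0040 for all peaks. The members called lower changed by -2.18 to -0.40 and those called higher by 0.38 to 1.62. Peaks called lower were mostly strong, with a median value of 118, whereas those called higher were weak, with a median of 15.03. The 159 lower members belonged to 168 genes and the 28 higher members to 31 genes, and no gene had members called both ways. Without hypoxia replicate 1, or without hypoxia replicate 2, limma called 0 peaks of the whole table, with 360 and 334 members lower and 145 and 143 higher at an unadjusted p under 0.05. In these fits the spread comes from the normoxia pair alone and the lone hypoxia library is assumed to vary like it. The median log2 fold change of members was -0.098 and -0.11 there. Without normoxia replicate 1 it called 133 members lower and 9 higher, beside 3.78% and 1.14% of all peaks. Without normoxia replicate 2 it called 212 and 16, beside 6.35% and 1.21%. On the recovered reads of all 4 libraries edgeR called 195 members lower and 50 higher, beside 5.7% and 2.54% of all peaks.

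**Figure D1:**
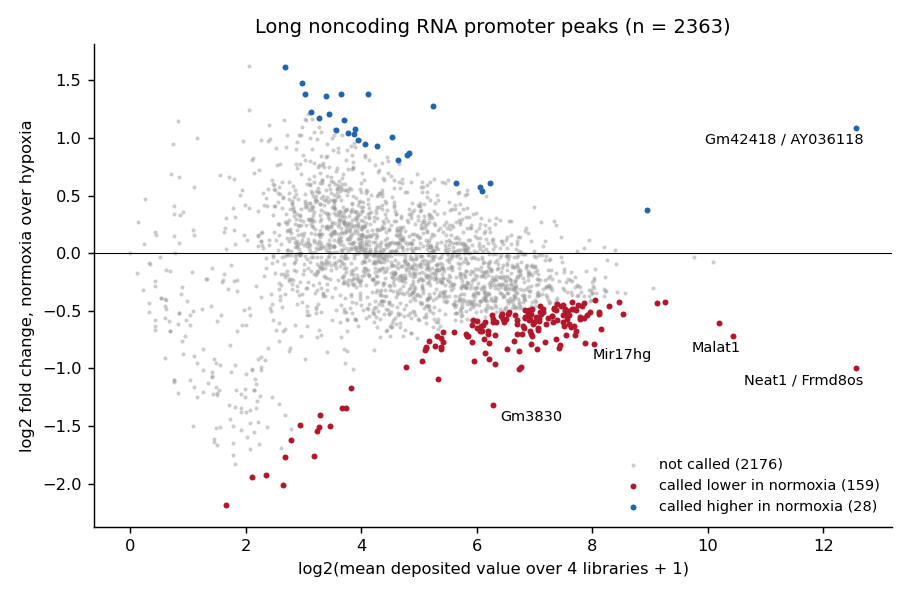
Each point is a member, by log2 of its mean deposited value plus 1 (x) and its log2 fold change of normoxia over hypoxia after RLE scaling (y). The 159 members called lower (red) sit mostly at the strong end, the 28 called higher (blue) mostly at the weak end, and the ribosomal-DNA-like Gm42418/AY036118 peak stands apart as a strong member that is higher.

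The number of calls and their balance depended on the scaling. With the values as deposited, 814 members were called lower and 4 higher, where 24% and 0.391% of all peaks were called. With equal totals over peaks the direction turned, with 31 members lower and 142 higher beside 0.842% and 6.87% of all peaks. Quantile normalization called 25 lower and 19 higher, beside 0.72% and 0.905%. Cyclic loess called 41 lower and 37 higher, beside 1.19% and 1.32%. The share of lower calls among members (34.4%, 1.31%, 1.06% and 1.74% in that order) was above that of all peaks under each scaling. By cyclic loess the share called higher was above that of all peaks too, at 1.57% against 1.32%. Members were stronger than all peaks (median value 22.2 against 14.3), and under RLE scaling most lower calls lay in strong members. The median log2 fold change of all peaks moved from -0.44 as deposited to 0.26 with equal totals, and that of members from -0.53 to 0.19, below the median of all peaks in each of the 5 scalings.

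Only 17 members were called lower under all 5 scalings and 2 were called higher, where 0.504% and 0.28% of all peaks were. These shares were 0.719% and 0.0846% of members. The 17 included Gm3830, Gm40513 and Snhg8, which the naming rule also picked, and the 2 were Gm43391 and Gm39075. At Gm41386, a lincRNA gene named here after its values were seen, 2 members that touch were among the 17, so they are not separate support. The narrower one (chr15:93712801-93713100) was 300 bp wide and weak, with 7.43 and 11.6 in hypoxia against 0.75 and 1.33 in normoxia. In width and in touching another peak it resembled the members that the peak caller assigned to hypoxia only. The fall of those members, described below, is no result because the assignment used these libraries. The wider one (chr15:93710201-93712800) had values of 112 and 118 in hypoxia against 40.5 and 43.4 in normoxia.

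At equal mean value the members were close to both comparison classes. Comparison peaks were weighted so that each of 20 bins of mean value held the same share as among members, which brought their median value to 22.2. Of the weighted intergenic peaks 6.28% were called lower and 2.04% higher, and of the weighted coding promoter peaks 7.53% lower and 0.769% higher, against 6.73% and 1.18% of members. The median log2 fold change was -0.040 in the weighted intergenic peaks and -0.12 in the weighted coding promoter peaks, with the members between them at -0.087.

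Members were also compared within each library, as the median log2 value of members minus that of the weighted comparison peaks. A change in this difference of medians need not match the medians of fold changes above. Against intergenic peaks the difference was 0.040 and 0.035 in hypoxia against -0.029 and -0.071 in normoxia. The groups did not overlap, and the mean fell by 0.0876 from hypoxia to normoxia (0.0377 ± 0.00326 and -0.0499 ± 0.0295, SD, n = 2 each; two-sided exact permutation p = 0.33, the smallest that 2 against 2 libraries allow). Against coding promoter peaks the difference was -0.039 and 0.072 in hypoxia against 0.00 and -0.048 in normoxia. These groups overlapped, and the change of -0.040 was smaller than the spread between the libraries (pooled SD 0.0601; exact permutation p = 0.667). The medians of fold changes order these classes the other way, at -0.087 in members and -0.12 in weighted coding promoter peaks.

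**Figure D2:**
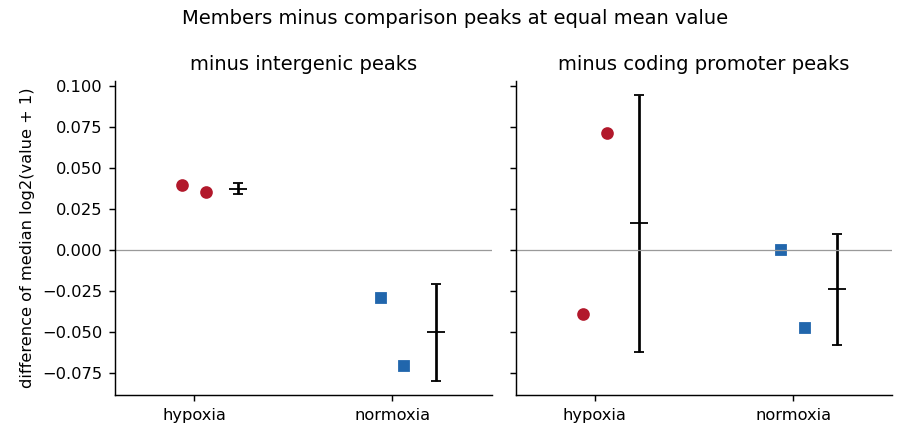
Each point is 1 library, as the median log2(value + 1) of members minus that of intergenic peaks (left) or coding promoter peaks (right) of equal mean value, with the group mean and SD beside it (n = 2). Hypoxia and normoxia points are separate on the left (0.040 and 0.035 against -0.029 and -0.071) and overlap on the right.

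The change of a member went with its mean value. In the weakest quintile of members 1.69% were called lower and in the strongest quintile 24.3%. The median log2 fold change rose from -0.0026 in the weakest quintile to 0.17 in the next and then fell to -0.028, -0.15 and -0.31. Intergenic peaks weighted to the same values went from 0.067 and 0.20 to 0.064, -0.10 and -0.28, and in the strongest quintile 23.2% of them were called lower. Coding promoter peaks weighted likewise ended at -0.34 with 26.7% lower. In each of the 5 quintiles the members' median was below the intergenic one, by 0.030 to 0.092, values read as a description because the members of a quintile share their libraries.

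**Figure D3:**
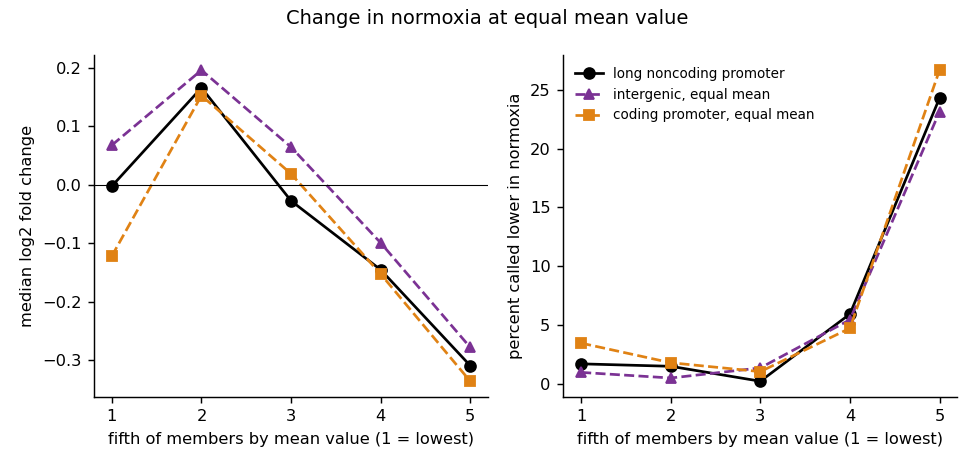
The x axis gives quintiles of members by mean value, and the y axis the median log2 fold change (left) or the percent called lower in normoxia (right), for members and for both comparison classes weighted to equal mean value. From the second quintile on all 3 medians go down, to -0.31, -0.28 and -0.34 in the strongest, where the percent called lower is highest.

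CpG-rich members were called lower in a larger share than CpG-poor ones, a description made without a test. With a CpG ratio under 0.4, 113 of 1959 members (5.77%) were called lower and the median log2 fold change was -0.051. With a ratio of 0.4 to 0.6 it was 30 of 288 (10.4%) and -0.22, and with a ratio of at least 0.6 it was 16 of 116 (13.8%) and -0.28. The median values of these sets were 21.7, 24.7 and 23.0 and their upper quartiles 53.9, 63.0 and 84.3, so the CpG-rich sets held a larger share of strong members, among which most lower calls lay. Within the strongest quintile, 37 of 105 members (35.2%) with a ratio of at least 0.4 were called lower, against 78 of 368 (21.2%) below it. Coding promoter peaks weighted to the same values within each CpG class had medians of -0.042, -0.20 and -0.27, and intergenic peaks -0.018, -0.18 and -0.28. These medians of fold changes lie within 0.050 of the members. The difference of medians within libraries changed by -0.066, 0.013 and -0.27 against intergenic peaks, and by -0.054, -0.064 and -0.14 against coding promoter peaks. In the highest class 9.22% of the weighted intergenic and 14.4% of the weighted coding promoter peaks were called lower.

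**Figure D4:**
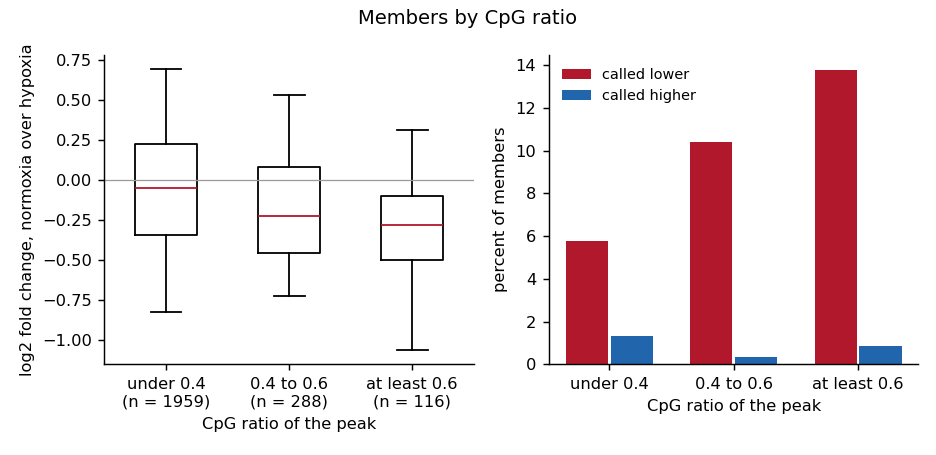
Left, boxes give the median and quartiles of the log2 fold change of members by CpG ratio, with whiskers at the lowest and highest 5%. Right, bars give the percent of members called lower or higher. The median moves from -0.051 to -0.28 and the percent called lower from 5.77% to 13.8% as the CpG ratio goes up.

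Letters at the starts were counted in 300-base windows of the 1463 members that held a start inside the peak. The GC box GGGCGG was present on either strand in 27.3% of 132 windows of members called lower, in 0 of 14 of members called higher and in 16.6% of 1317 of the rest. It was present in 17.1% of all 8870 windows at autosomal genes of the same types and in 43.7% of 20802 windows at protein-coding genes. The AP-1 motif TGANTCA was present in 6.82% of the windows of members called lower, in 14.3% of the 14 called higher and in 16.2% of those called neither way. All noncoding windows held it in 9.62% and coding windows in 6.88%. The core of the hypoxia response element, ACGTG, was in 25.8% of the windows of lower members and in 28.6% of those of higher members. It was in 22.1% of those called neither way and in 17.9% of all noncoding windows. The TATA box TATAAA was in 10.6%, 21.4% and 13.8% of lower, higher and uncalled members. These matches are descriptions, and no test was made on them.

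Where the start lay relative to the peak went with both strength and change. The 1463 members that held the start had a median value of 33.9, 132 of them were called lower (9.02%) and their median log2 fold change was -0.13. The 900 members with the start outside the peak had a median value of 12.3, 27 called lower (3.00%) and a median of -0.0068. Among members of a single gene type, lincRNA members were called lower in 110 of 1584 cases (6.94%), processed_transcript members in 16 of 233 (6.87%) and antisense members in 25 of 510 (4.90%). Their medians were -0.085, -0.20 and -0.033.

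A small set of members stood apart by how the peak caller had assigned them. The caller gave 134 members to hypoxia only and none to normoxia only. All 134 touched another peak, and they were narrow, at a median width of 300 bp, and weak, at a median value of 1.92. Their median log2 fold change of -1.10 is no result, since the assignment was made on these libraries. The other 2229 members had a median of -0.057, with 144 called lower (6.46%). The 4.57% called lower over all peaks still includes 8754 peaks assigned to hypoxia only.

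The share called lower showed no steady trend with the distance to the nearest protein-coding start. It was 7.59% of 290 members from 5 to 10 kb away and 5.03% of 398 from 10 to 20 kb. Further out it was 7.14% from 20 to 50 kb, 6.75% from 50 to 100 kb and 6.99% of 572 beyond 100 kb. The bin from 10 to 20 kb also had the largest share called higher, 2.26%. The 487 members that overlapped a coding gene were called lower in 3.90% of cases and the 1876 others in 7.46%. Across 1580 members of mean value 10 or more, the log2 fold change had a Spearman correlation of 0.086 with that of the strongest promoter peak of the nearest coding gene. For 20720 intergenic peaks it was 0.038. Points in both sets share libraries, and several members share a promoter peak.

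Among the RNAs of the nucleus, Neat1 and Malat1 had the strongest peaks and both were lower in normoxia. The Neat1 peak (chr19:5815901-5852900) spans the whole gene and that of the antisense Frmd8os, and had values of 8487 and 9249 in hypoxia against 2621 and 3849 in normoxia. Both normoxia values were below both hypoxia values, with a log2 fold change of -1.001 ± 0.084 (SE) and FDR = 4.27e-07 by limma. In RefSeq the peak also overlaps the protein-coding gene Frmd8. The reads cannot be divided among Neat1, Frmd8os and Frmd8. The Malat1 peak (chr19:5792901-5811400) likewise covers the gene, and its values were 1910 and 1968 in hypoxia against 801 and 893 in normoxia. Its log2 fold change was -0.72 ± 0.069 with FDR = 2.77e-08. Neat1 stayed lower under the other scalings, at -1.48 as deposited, -0.71 with equal totals, -1.27 by quantile and -0.22 by cyclic loess, but its limma FDR was 0.0904 and 0.145 with equal totals and by quantile. Malat1 was called under 4 of the scalings, and cyclic loess gave -0.094 with FDR = 0.332.

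The other nuclear and scaffold RNAs changed less. Of 9 genes in this list 6 had members, 7 in all, and 2 of the 7 were called lower and none higher, beside 4.57% of all peaks lower and 1.77% higher. So few members allow no statement about a list from its count of calls, here and in the lists that follow. Miat (chr5:112226601-112229300) had values of 70.8 and 65.3 in hypoxia against 35.6 and 33.4 in normoxia, with a log2 fold change of -0.49 that missed the threshold (limma FDR = 0.036). Lncpint, an RNA known to be induced by p53, had a pair of wide peaks on chromosome 6 at -0.032 and 0.025. The first (chr6:31061601-31093400, shared with Gm27019) had 975 and 1059 in hypoxia against 696 and 731 in normoxia, so its deposited values were lower in normoxia and its RLE-scaled ones were nearly level. It was called lower as deposited (limma FDR = 0.00568) and higher with equal totals (0.26) and by cyclic loess (0.54), so its direction depended on the scaling.

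Host genes of small RNAs gave 4 of the 7 called members in all lists together. Of 38 genes 14 had members, 29 in all, with 4 called lower and none higher (beside 4.57% of all peaks lower and 1.77% higher) and a median log2 fold change of -0.31. Snhg8, which hosts a small nucleolar RNA, had values of 351 and 380 in hypoxia against 135 and 171 in normoxia at its start (chr3:123507801-123509900; log2 fold change -0.78 ± 0.10, limma FDR = 1.04e-05). Mir17hg, host of a cluster of growth-promoting microRNAs, had 344 and 317 against 121 and 156 (chr14:115039701-115043100; -0.78 ± 0.11, FDR = 2.75e-05). The groups were well apart in both, and Mir17hg lost its call under quantile normalization (-0.42, FDR = 0.0121). The Mir17hg peak has a CpG ratio of 0.989, although the window at its annotated start has a ratio of only 0.356, so that most of its CpG-rich DNA lies away from that start.

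The other called hosts were weaker. Mir155hg, the source of a microRNA of immune cells, had 47.8 and 47.3 in hypoxia against 14.2 and 25.4 in normoxia (chr16:84702001-84703900; log2 fold change -0.81 ± 0.20, limma FDR = 0.00663). A second Mir155hg member beside it (chr16:84704001-84705800) had 11.3 and 16.999 in hypoxia against 10.9 and 12.3 in normoxia and was not called (0.20). Dnm3os, an antisense RNA inside Dnm3 that hosts microRNAs and is needed for normal growth of the mouse skeleton, had 261 and 280 against 135 and 141 (chr1:162215401-162222800; -0.49 ± 0.11, FDR = 0.00236). With equal totals, quantile normalization and cyclic loess neither was called. The log2 fold change of Mir155hg was -0.53, -0.82 and -0.81 there, and that of Dnm3os -0.20, -0.13 and -0.12. Mir155hg also depended on 1 library, with -0.47 (FDR = 0.153) without normoxia replicate 1 and -1.15 without normoxia replicate 2.

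Hosts of small nucleolar RNAs other than Snhg8 had log2 fold changes of -0.48 (Snhg5, limma FDR = 0.0125), -0.31 (Snhg6), -0.30 (Snhg15), -0.20 (Snhg17) and 0.093 (Snhg20), none called. Snhg5 had 130 and 135 in hypoxia against 60.7 and 76.1 in normoxia, and a second Snhg8 member had 43.5 and 49.3 against 29.2 and 27.4. Mir99ahg, host of several microRNAs, had 5 members of mean value 10 or more, which ranged from -0.84 to 0.79 with FDR of 0.0137 at the least. Its 2 strongest had 125 and 166 against 73.8 and 74.1, and 78.9 and 109 against 39.0 and 52.4, while the one at 0.79 had 12.7 and 10.9 against 16.1 and 14.4. Members of 1 gene thus pointed both ways. The wide peak of Carmn and Bvht, RNAs of the cardiovascular lineage, had 1275 and 1308 in hypoxia against 830 and 934 in normoxia, a log2 fold change of -0.074. Its direction also turned, since it was called lower as deposited (limma FDR = 0.00246) and higher with equal totals (0.22) and by cyclic loess (0.53). Mirt1 had a log2 fold change of -0.18.

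Of 9 genes of imprinted noncoding RNAs 6 had members, 15 in all, with a median log2 fold change of 0.056. None was called by limma, beside 4.57% of all peaks lower and 1.77% higher. At an unadjusted limma p under 0.05, 3 were lower and 0 higher, and edgeR called 1 lower and 0 higher. Meg3, Rian and Mirg are maternally expressed from the same imprinted domain. The Meg3 start (chr12:109540401-109544800) had 130 and 144 in hypoxia against 69.7 and 76.1 in normoxia (-0.43 ± 0.13, limma FDR = 0.021), whereas the wide peak over its body (chr12:109546001-109573400) had 282 and 269 against 206 and 221 (0.11). That wide peak was called higher with equal totals (0.40), quantile normalization and cyclic loess (0.51), and was not called as deposited, where its sign was negative (-0.37). Mirg had a member at -0.45 (FDR = 0.0119) and one at 0.33, and Rian one at 0.072. H19, a maternally expressed RNA of the growing embryo, had members at 0.056 and 0.40, the stronger with 57.3 and 51.0 in hypoxia against 39.7 and 41.0 in normoxia. Kcnq1ot1 and Airn, antisense RNAs of the paternal allele that silence their neighbours, had -0.20 and 0.50.

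Of the p53 and growth control RNAs, 5 of 11 genes had members, 11 in all, and the 1 called was the Neat1 peak, beside 4.57% of all peaks called lower. Trp53cor1, which lies next to the cell cycle inhibitor gene Cdkn1a, had a member with 77.5 and 79.6 in hypoxia against 45.4 and 42.7 in normoxia (-0.35) and a weak one with 6.37 and 16.0 against 13.9 and 13.0 (0.81), whose hypoxia values lie on both sides of the normoxia values. Pvt1, a neighbour of Myc, had 4 members between -0.34 and 0.18. Dleu2, which hosts microRNAs that restrain the cell cycle, had -0.020 and -0.36, the second with 272 and 283 against 149 and 160 (limma FDR = 0.018).

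Of the RNAs near developmental regulators, 9 of 41 genes had members, 14 in all, with 1 called lower, beside 4.57% of all peaks. Dlx6os1, which overlaps the Dlx5 and Dlx6 locus of skeletal and neural patterning, had 205 and 234 in hypoxia against 106 and 125 in normoxia (chr6:6829401-6831600; -0.44 ± 0.11, limma FDR = 0.00792). It lost the call with equal totals (-0.15), quantile normalization (-0.11) and cyclic loess (-0.11), and without normoxia replicate 1 (-0.38, FDR = 0.0166). Runx2os2, antisense within the locus of the osteoblast regulator Runx2, had 104 and 99.95 against 87.3 and 91.1, a log2 fold change of 0.28 that was not called. It was called higher with equal totals (0.57) and by cyclic loess (0.53), and had -0.19 as deposited. Rmst, Tbx3os1 and the pair at Sox2ot had -0.51, -0.40, -0.090 and 0.15, none called. The list of hypoxia and stromal RNAs had 15 genes, 7 of them with 15 members, of which 3 were called lower (Neat1, Malat1 and Dnm3os), beside 4.57% of all peaks.

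All lists together named 105 genes, of which 36 had 66 members. Of these 7 were called lower (the Neat1, Malat1, Snhg8, Mir17hg, Mir155hg, Dnm3os and Dlx6os1 peaks) and none higher by limma, beside 4.57% of all peaks lower and 1.77% higher and 6.73% and 1.18% of members. Their median was -0.19, beside -0.087 for all members. Members higher at an unadjusted p under 0.05 numbered 3, and edgeR called 11 lower and 0 higher. The median of the 46 with a mean value of at least 10 was -0.20. On the deposited values the groups did not overlap and normoxia was the lower in 50 of the 66 and in 1663 of all members (70.4%), where this held for 59.5% of all peaks and the opposite for 6.94%. This share went up with strength, from 46.3% in the weakest quintile of members to 98.3% in the strongest.

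The strongest calls outside the lists were at genes known only by their annotation numbers. Gm3830 (chr8:105164001-105165300) had 117 and 121 in hypoxia against 28.1 and 40.7 in normoxia, with a log2 fold change of -1.31 ± 0.15 and limma FDR = 8.92e-07. Gm40513 (chr9:41887001-41891400) had 145 and 167 against 57.7 and 52.7 (-1.01 ± 0.13, FDR = 8.85e-06). A wide peak shared by Gm26887 and Gm26532 (chr8:84197001-84215300) had 1613 and 1567 against 695 and 804 (-0.61 ± 0.075, FDR = 2.48e-06). In all 3 the groups did not overlap, which the naming rule required. Gm3830 and Gm40513 were lower under every scaling, with -1.03 and -0.72 under equal totals, whereas the wide peak had -0.0043 under cyclic loess.

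The members that rose were a mixed set. The strongest member of all by value, over Gm26917, Gm42418 and AY036118 (chr17:39842701-39849100), had 5307 and 4341 in hypoxia against 7154 and 7518 in normoxia (log2 fold change 1.09 ± 0.081, limma FDR = 7.35e-08). RefSeq places a sequence related to 18S ribosomal RNA there, and 18.2% of its 31-base words occur elsewhere in the assembly, so its reads may come from other copies of ribosomal DNA. It was called under 3 of the 5 scalings, with 1.38 and FDR = 0.0713 with equal totals and 1.88 and FDR = 0.0941 by cyclic loess. Without normoxia replicate 1 or 2 it had 1.07 and 1.12 and was not called (FDR = 0.38 and 0.348). Gm43391 (chr5:15459701-15464200) had 29.0 and 23.8 against 48.3 and 45.4 (1.28 ± 0.18, FDR = 2.88e-05), and 69.2% of its words occur elsewhere. Both are therefore uncertain as to place.

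The other 3 risers named by the rule had unique sequence and few reads. Gm39075 (chr7:117227901-117229300) had 9.55 and 12.2 in hypoxia against 20.6 and 22.7 in normoxia (1.38 ± 0.24, limma FDR = 0.000249). Gm13601 (chr2:67516301-67517100), an antisense gene, had 6.72 and 8.16 against 12.4 and 18.7 (1.38 ± 0.28, FDR = 0.00116). Gm29442 (chr7:16620801-16621900) had 14.9 and 20.7 against 24.0 and 28.7 (1.01 ± 0.21, FDR = 0.00178). Each had both normoxia values above both hypoxia values as deposited, which the naming rule required. Gm13601 lost its call under quantile normalization (1.21, FDR = 0.0121), and Gm29442 lost it there (0.95, FDR = 0.0102) and with the values as deposited (0.55, FDR = 0.0589). Both also lost it without normoxia replicate 2 (1.17 with FDR = 0.0229, and 0.95 with FDR = 0.0109). The plot by library shows how the called members divide, with the values of the lower members between 14.2 and 9249 and those of these 3 risers at 28.7 or below.

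**Figure D5:**
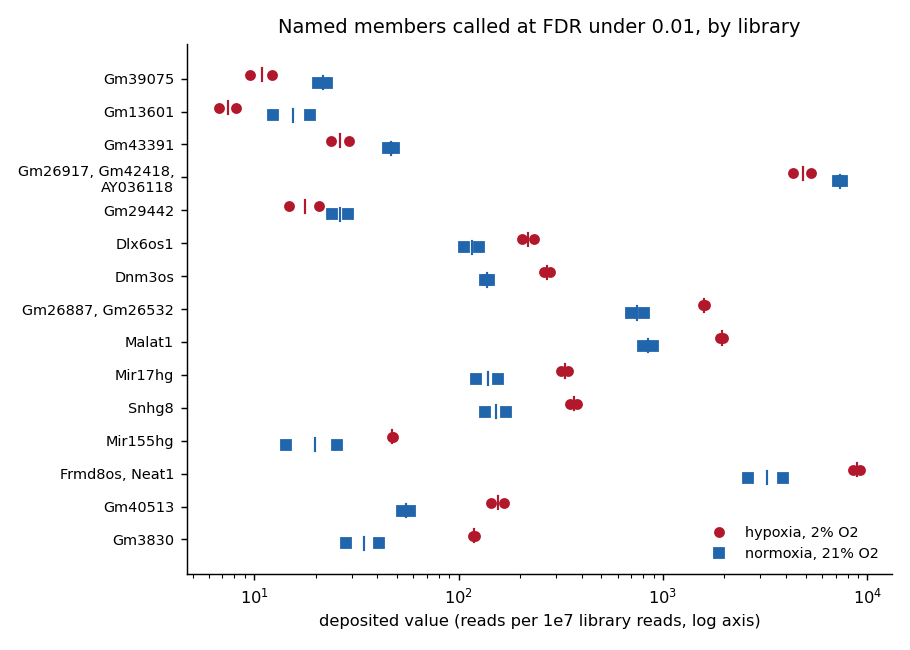
Each row is a named member called at FDR under 0.01 and each point a library (circles hypoxia, squares normoxia, short lines the group means of n = 2), on a log axis of the deposited value in reads per 10000000 library reads. In all 15 rows the groups do not overlap, and 10 of them are lower in normoxia.

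In 101 members more than 20% of the words occur elsewhere in the assembly, and 17 of these (16.8%) were called lower and 2 higher, with a median value of 13.9. Reads in such peaks cannot be placed with certainty, and without these 101 the share called lower among members was 6.28%.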

How the data were processed

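The 4 mouse ATAC-seq libraries comprised 2 in hypoxia and 2 in normoxia. By their methods, the authors mapped reads to mm10 with bowtie2, removed duplicates with Picard and called 1 peak set with chromstaR (bins of 300 bp, steps of 100 bp, mapping quality of at least 15). The deposited signal, named RPKM by the authors, was read as whole reads times 10000000 divided by the library total. On that reading 100% of values came out whole (tolerance 0.01 reads). This fixes the step between values, while the constant of 10000000, and with it the totals, was assumed. The limma p-values rest on the spread between 2 experiments per group. That spread was drawn toward a trend with signal estimated over all peaks.

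Members and lists were chosen with earlier results of these data known. Values were divided by RLE size factors (1.13, 1.23, 0.81 and 0.886 in library order), and log2(value + 1) was fitted over all peaks with limma 3.58.1 (trend and robust). edgeR on the recovered reads was an alternative. Named members were those at listed genes with a mean value of at least 10, the 5 lower and 5 higher calls of lowest p without overlap, and the 3 strongest. Comparison peaks were weighted by mean value in 20 bins. Start windows came from the GRCm38.p6 assembly. The fits were tested on simulated data.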

Additional observations from a re-analysis of the deposited data

How the results depend on the processing

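The share of members called was 34.4% lower and 0.169% higher with the values as deposited, 1.31% and 6.01% with equal totals, 1.06% lower by quantile normalization and 1.74% lower by cyclic loess. It was 0% in both directions with eBayes without trend and robust (unadjusted p under 0.05: 314 lower, 184 higher), 0.592% higher with a pseudocount of 0.1, 2.31% higher with a minimum mean value of 5, 2.12% higher by edgeR, and 13.8% and 4.15% at an FDR under 0.05. Leaving out a library gave 0% to 8.97% lower and 0% to 0.677% higher. Whether the replicate numbers pair the libraries is not stated. The correlation of same-numbered deviations was 0.011, which cannot show whether they do. With the replicate block the shares were 9.56% lower and 2.62% higher, beside the main 6.73% and 1.18%.

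The median log2 fold change of members was -0.53 as deposited, 0.19 with equal totals, -0.052 by quantile normalization, -0.051 by cyclic loess, -0.070 with a pseudocount of 5, -0.074 with a minimum mean value of 5, -0.069 with 1 peak per gene, -0.11 within 500 bp of a start, and -0.051 for members up to 3 kb wide. Among alternatives chosen after seeing the data, it was -0.13 for members that hold the start and -0.057 for those assigned to both groups. Without 1 library it was -0.11 to -0.086. The difference from intergenic peaks was -0.055 with the minimum mean value, -0.047 with 1 peak per gene, -0.054 for members that hold the start, -0.064 for members assigned to both groups, -0.066 at equal mean value and GC content, -0.23 with no matching and -0.11 to -0.067 without 1 library. The difference from coding promoter peaks was 0.17 with no matching and -0.095 to 0.015 without 1 library, beside the main -0.040. It was nearer zero at equal mean value and peak width (-0.0097), with 1 peak per gene (-0.019) and within 500 bp of a start (-0.020). It was further away by cyclic loess (-0.050) and where only transcripts of type protein_coding barred a peak (-0.054). The causes were not tested.

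Some members that were not called changed sign. As deposited, the log2 fold change was -0.30 (Sox2ot at chr3:34638601-34639700), -0.45 (Lncpint at chr6:31204601-31222200), -0.036 (H19 at chr7:142574201-142575600), -0.41 (H19 at chr7:142577301-142582400), -0.36 (Snhg20), -0.37 (Meg3 at chr12:109546001-109573400), -0.40 (Rian), -0.11 (Mirg at chr12:109726801-109728900), -0.29 (Pvt1 at chr15:62178401-62181800), -0.44 (Mir99ahg at chr16:77328601-77330600), -0.24 (Mir155hg at chr16:84704001-84705800) and -0.19 (Runx2os2). With equal totals, the log2 fold change was 0.087 (Snhg17), 0.18 (Sox2ot at chr3:34663801-34665200), 0.057 (Snhg8 at chr3:123504401-123507700), 0.26 (Lncpint at chr6:31061601-31093400), 0.091 (Kcnq1ot1), 0.27 (Dleu2 at chr14:61647001-61651100), 0.20 (Pvt1 at chr15:62215801-62217600), 0.15 (Pvt1 at chr15:62222401-62223300), 0.22 (Carmn) and 0.092 (Mirt1). By quantile normalization, the log2 fold change was 0.19 (Lncpint at chr6:31061601-31093400), 0.062 (Kcnq1ot1), 0.22 (Dleu2 at chr14:61647001-61651100), 0.098 (Pvt1 at chr15:62215801-62217600) and 0.14 (Carmn). By cyclic loess, the log2 fold change was -0.0046 (Sox2ot at chr3:34638601-34639700), 0.54 (Lncpint at chr6:31061601-31093400), 0.057 (Kcnq1ot1), 0.21 (Dleu2 at chr14:61647001-61651100), 0.010 (Dleu2 at chr14:61679901-61687500), 0.10 (Pvt1 at chr15:62215801-62217600) and 0.53 (Carmn). Without 1 library it ranged over -0.27 to 0.081 (Sox2ot at chr3:34663801-34665200), -0.055 to 0.0015 (Lncpint at chr6:31061601-31093400), -0.047 to 0.082 (Lncpint at chr6:31204601-31222200), -0.088 to 0.19 (H19 at chr7:142577301-142582400), -0.014 to 0.21 (Snhg20), -0.11 to 0.24 (Rian), -0.15 to 0.12 (Dleu2 at chr14:61647001-61651100), -0.21 to 0.027 (Pvt1 at chr15:62215801-62217600), -0.23 to 0.014 (Pvt1 at chr15:62222401-62223300), -0.14 to 0.21 (Mir99ahg at chr16:77328601-77330600), -0.024 to 0.41 (Mir155hg at chr16:84704001-84705800) and -0.35 to 0.0075 (Mirt1).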
